A study of Mus musculus with 4 samples.

Results

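The genes described here are 7 transcription factors and cofactors of the B lineage, Ebf1, Pax5, Foxo1, Ikzf3, Bach2, Pou2af1 and Tcf3, which were found by symbol among the 31053 gene rows of the 4 expression matrices, 7 of 7 being present. They were counted by single-cell RNA sequencing of the 5′ end of transcripts in bone marrow mononuclear cells (BMNCs), the cells that float on a Ficoll gradient after femur and tibia are flushed. The 4 libraries came from 2 TLR9-/- mice and 2 wildtype (WT) mice of the C57BL/6 strain, and the labels name no treatment. The ages and sexes of these 4 mice are not given in the sources used here. The series was run as 2 experiments, each with 1 mouse of either genotype, and each genotype is therefore represented by 2 animals. The question taken up is whether the smaller number of B-lineage cells in TLR9-/- marrow went with lower levels of these factors within each stage of B-cell development.

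After filtering, 10781 and 8918 cells were kept from the TLR9-/- mice, 10573 and 8895 from the WT mice, with 50204578, 63958243, 31210188 and 41384657 UMIs (unique molecular identifiers, each standing for 1 captured transcript). The TLR9-/- libraries were thus the deeper ones, with a median of 2545 and 3618 UMIs per cell against 1759 and 2287. Between 112 and 185 cell barcodes were shared by any pair of libraries. Tlr9 itself, the receptor for unmethylated CpG DNA that the knockout removes, was at 0.817 and 0.750 CPM (UMIs of a gene in 1000000 UMIs) in TLR9-/- against 3.84 and 2.34 in WT. It was lower in both TLR9-/- libraries but not absent, and which part of the gene is missing is not given in the sources used here.

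The early factors among the 7 act in a known sequence. Tcf3 (which encodes the E2A proteins) works in lymphoid progenitors and helps to switch on Ebf1, the factor that specifies the B lineage. Ebf1 and Foxo1 act together in early B-cell progenitors, and Pax5, downstream of Ebf1, holds cells to the lineage by repressing genes of other fates. Ikzf3 (Aiolos) restrains pre-B cell growth after pre-B receptor signalling, and Bach2 represses the plasma cell programme. Pou2af1 (OCA-B) is a coactivator of octamer-binding proteins.

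In the GENCODE M21 annotation of GRCm38, all 7 are protein-coding genes. Ebf1 lies at chr11:44617317-45008091 on the plus strand and Ikzf3 on the same chromosome at chr11:98464902-98546031 on the minus strand. Pax5 lies at chr4:44524757-44710487 on the minus strand, and Bach2 at chr4:32238804-32586108 on the plus strand. Foxo1 is at chr3:52268336-52353221 and Pou2af1 at chr9:51213708-51240080, both on the plus strand, and Tcf3 is at chr10:80409514-80433647 on the minus strand. The RefSeq promoter table (GRCm38.p6) held 7 start sites for 6 of the genes, of which 2 belong to Ebf1, and Ikzf3 had none there.

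The 250 bases before each of the 7 start sites were searched on both strands for the palindromic EBF site (TCCC and GGGA parted by 2 bases of any kind), the E-boxes CAGGTG and CAGCTG, the octamer ATGCAAAT and the Ets core GAGGAA. The EBF site was found in the Foxo1 window alone among the 7, and in 0.779% of the 32851 RefSeq windows of this length. The Ets core was found in 1 of the 7, the second Ebf1 window, and in 23.3% of all windows. The E-boxes, held by 17.2% and 13% of all windows, and the octamer, held by 1.6%, matched in 0 of the 7. The windows of Foxo1 (chr3:52268087-52268336, plus strand) and Ebf1 (chr11:44619978-44620227, plus strand) are shown because they hold these matches, in capitals, and that of Pax5 (chr4:44710695-44710944, minus strand) because Pax5 follows Ebf1 in the sequence above and has no match, so that it is in lower case throughout.
Foxo1: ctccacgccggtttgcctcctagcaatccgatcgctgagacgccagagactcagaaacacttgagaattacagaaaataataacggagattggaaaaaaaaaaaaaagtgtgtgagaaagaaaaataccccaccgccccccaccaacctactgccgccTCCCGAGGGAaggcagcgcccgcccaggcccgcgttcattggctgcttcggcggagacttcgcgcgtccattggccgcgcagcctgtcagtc
Ebf1: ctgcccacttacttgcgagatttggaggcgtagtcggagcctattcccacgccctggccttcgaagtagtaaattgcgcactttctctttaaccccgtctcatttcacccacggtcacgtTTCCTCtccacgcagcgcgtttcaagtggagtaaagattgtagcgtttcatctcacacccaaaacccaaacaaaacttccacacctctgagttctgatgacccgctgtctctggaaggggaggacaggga
Pax5: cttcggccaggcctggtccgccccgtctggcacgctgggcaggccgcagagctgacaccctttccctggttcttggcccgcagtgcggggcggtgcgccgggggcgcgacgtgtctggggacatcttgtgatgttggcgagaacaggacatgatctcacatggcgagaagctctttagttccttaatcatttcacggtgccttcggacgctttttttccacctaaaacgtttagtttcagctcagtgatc
A match of letters describes the sequence only, and binding at these windows was not measured here.

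Cells were assigned to 8 stages by marker genes that do not include the 7 factors. A cell of the B lineage had at least 2 UMIs of a set of B-cell genes that includes Cd79a and Cd79b (the B genes), and these cells were divided, in this order, into mature B cells (an Ighd UMI), immature B cells (a Ms4a1 UMI), pro-B and large pre-B cells (at least 2 UMIs of the surrogate light chain genes Vpreb1, Vpreb2 and Igll1), cycling pre-B cells (at least 3 UMIs of cell-cycle genes) and small pre-B cells. Lymphoid progenitors carried Dntt with Flt3, Kit, Cd34 or Il7r, other progenitors at least 2 stem and progenitor genes without Dntt, and plasma cells immunoglobulin and Jchain. Surrogate light chain genes were 0.319% to 0.409% of UMIs in pro-B and large pre-B cells and 0.0011% to 0.0027% in small pre-B cells. These genes divide the gates, so that this contrast follows from their definition and is no check of the labels. In the cycling pre-B gate the marker shares differed between the genotypes. The B genes were 0.090% and 0.042% of UMIs in TLR9-/-, against 0.229% and 0.168% in WT, and Mpo, the myeloperoxidase of granulocyte and monocyte precursors, made up 0.351% and 0.724% against 0.0875% and 0.264%. The median cell of this gate held 15756 UMIs in TLR9-/- library 2, so that 2 B-gene UMIs are a small share of such a cell. A second set of gates, added after this was seen, also asked that the B genes reach 0.05% of a cell's UMIs, and Ighd, Ms4a1 and the surrogate light chain genes 0.03% where they define a stage. In these gates by share, Mpo was 0.0529% and 0.209% against 0.0522% and 0.0754% of UMIs in cycling pre-B cells, and results that differ between the 2 sets are given for both.

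B-lineage cells took a smaller share of both TLR9-/- libraries. The 5 gates from pro-B to mature B held 31.5% and 28.2% of cells in TLR9-/- against 47.4% and 48.9% in WT. Pro-B and large pre-B cells were 5.64% and 2.23% against 6.85% and 7.03% of cells (log2 fold change -0.82 ± 0.53, standard error). Small pre-B cells were 9.13% and 4.96% against 14.6% and 11.4% (-0.88 ± 0.46), and immature B cells 4.97% and 4.27% against 7.58% and 8.16% (-0.77 ± 0.38). In these 3 stages both TLR9-/- libraries lay below both WT libraries. Mature B cells overlapped between the genotypes, at 6.58% and 13.1% against 10.5% and 16.7%. Cycling pre-B cells were 5.14% and 3.68% against 7.87% and 5.64%, and 4.06% and 2.30% against 7.99% and 6.19% with gates by share. The progenitor gates stood the other way, other progenitors being 4.80% and 5.24% against 1.45% and 2.25% of cells (1.44). The median other progenitor held 10886 and 17907 UMIs in TLR9-/- against 7671 and 8655 in WT. With cells thinned to equal depth before gating, other progenitors were 0.544% and 0.461% against 0.340% and 0.384% (0.47). Lymphoid progenitors went from 0.677% and 0.729% against 0.397% and 0.540% to 0.236% and 0.253% against 0.274% and 0.336%, so that their direction reversed. With the gates on UMIs and no thinning, no stage passed the edgeR quasi-likelihood test on cell numbers over the 13 gates. The lowest adjusted p of this test among the 8 stages was 0.0849, for other progenitors. An unadjusted p under 0.05 was found for 1 of the 8.

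**Figure D1:**
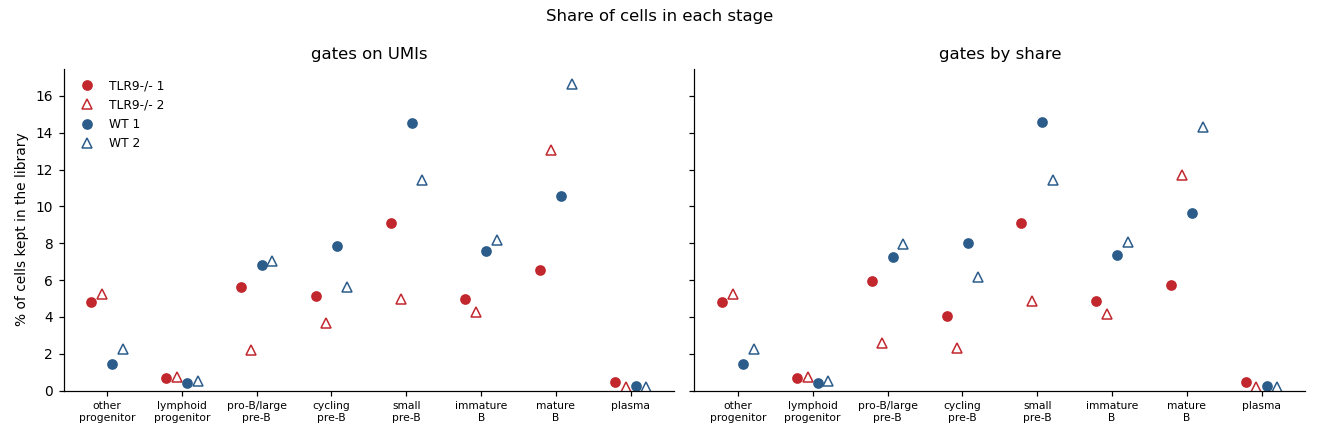
Share of the cells kept in each library (y axis, %) that fell in each of 8 stages, with the gates on UMIs (left) and the gates by share (right). Each point is 1 library, red for TLR9-/- and blue for WT, filled circles for number 1 and open triangles for number 2. Small pre-B cells were 9.13% and 4.96% in TLR9-/- and 14.6% and 11.4% in WT.

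All 7 factors varied along the stages. To compare stages, UMIs were summed per stage and library and scaled together (CPM, on a scale shared by all stages), and neighbouring stages were tested in 1 edgeR fit with the library as a block. Of 49 tests of a member between neighbours, 30 had an adjusted p under 0.05, and 36 with gates by share. Ebf1 stood at 0.906, 0.638, 0.695 and 1.25 CPM in other progenitors (TLR9-/- 1, TLR9-/- 2, WT 1 and WT 2, the order kept throughout) and at 118, 23.3, 40.9 and 95.2 CPM in lymphoid progenitors. It was thus near 0 in every library in the progenitor gate without Dntt, and the difference of 6.13 ± 0.55 on the log2 scale was called (adjusted p = 8.05e-09, edgeR quasi-likelihood). The other progenitor gate is not confined to the B lineage, so that this step compares gates and gives no order in time. Bach2 (log2 difference 2.47) and Tcf3 (0.96) rose in the same step, in which 8.2% of the 10064 genes tested rose. Pax5, Foxo1, Ikzf3 and Pou2af1 did not pass the test there, with 8, 7, 1 and 4 UMIs in the lymphoid progenitors of all 4 libraries together. Gates by share leave both progenitor gates as they are, and in that fit Pax5 (3.96) and Pou2af1 (3.70) passed as well, 9.5% of genes rising. In the lymphoid progenitors the Pou2af1 UMIs came from WT library 2 alone, and the Pax5 UMIs from TLR9-/- library 1 and WT library 2.

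At the next step, from lymphoid progenitors to pro-B and large pre-B cells, all 7 factors rose, with log2 differences from 1.46 for Tcf3 to 6.07 for Pou2af1, whereas 13% of genes tested rose (14.8% with gates by share). Pax5 went from 7.05, 0, 0 and 13.1 CPM to 105, 129, 136 and 162 CPM, and every pro-B value lay above every progenitor value. Foxo1, which promotes transcription of the recombination genes Rag1 and Rag2, went from 3.28 to 4.09 CPM over the 4 libraries to between 31.3 and 52.0 CPM. Tcf3 had the smallest difference because it was already present at 83.5 to 108 CPM in lymphoid progenitors.

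Small pre-B cells have left the cell cycle to rearrange the light chain genes. They held the highest mean CPM of Ebf1, Pax5, Foxo1, Ikzf3, Bach2 and Tcf3. Ebf1 stood there at 4447, 2643, 4667 and 2688 CPM, Bach2 at 428, 404, 452 and 587 CPM and Ikzf3 at 183, 163, 198 and 184 CPM. This gate holds the B-lineage cells that no other B gate took, so that its limits depend on depth. CPM is a share of UMIs. The median cell held 868 to 1430 UMIs in this gate and 2479 to 6771 in pro-B and large pre-B cells. Ebf1 was detected in 90.0% to 95.2% of small pre-B cells and 98.0% to 99.3% of pro-B and large pre-B cells without thinning. With cells thinned to equal depth these shares were 83.3% to 92.3% and 74.1% to 83.8%. All 7 factors rose from cycling to small pre-B cells, by 0.98 (Tcf3) to 2.94 (Ikzf3) on the log2 scale, and by 0.37 to 2.01 with gates by share, in a step where 32% of genes rose (28.4% with gates by share). Between pro-B or large pre-B and cycling pre-B cells the direction depended on the gates. Pax5 fell under both (-1.59, and -0.70 with gates by share), Ebf1 and Foxo1 fell with the gates on UMIs (-1.15 and -0.87) but not with gates by share (-0.29 and 0.00), and Bach2, Pou2af1, Tcf3 and Ikzf3 rose with gates by share, by 0.39 to 0.66. In this step 8.51% of genes fell with the gates on UMIs, and 11.9% fell and 18.1% rose with gates by share.

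From small pre-B to immature B cells, Ebf1 (log2 difference -1.53), Bach2 (-1.85), Tcf3 (-1.22), Pou2af1 (-0.91) and Foxo1 (-0.75) fell, where 12.5% of genes fell (10.8% with gates by share, which called the same 5 factors). Pax5 (-0.15) and Ikzf3 (-0.07) did not pass the test: Pax5 had 173, 170, 188 and 248 CPM in small pre-B cells and 130, 157, 172 and 252 CPM in immature B cells, ranges that overlap. No member differed between immature and mature B cells in edgeR's test (lowest adjusted p 0.414, 0 of 7 with an unadjusted p under 0.05), where 2.12% of all genes did (2.73% with gates by share, lowest adjusted p 0.0772, 1 of 7 with an unadjusted p under 0.05), and the 4-library levels of Ebf1 overlapped between these neighbours, at 1017 to 1459 and 1186 to 1991 CPM.

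Plasma cells kept a subset of the factors. Pou2af1 rose from 160, 155, 204 and 176 CPM in mature B cells to 365, 407, 333 and 470 CPM in plasma cells (log2 difference 1.20, adjusted p = 0.00328), in a step where 8.68% of genes rose. Ebf1 (-3.96), Pax5 (-4.55), Bach2 (-4.19) and Tcf3 (-1.38) fell, where 15.6% of genes fell. Gates by share gave the same directions, with 9.58% of genes rising and 16% falling. The Pax5 and Bach2 values in plasma cells rest on 3 and 5 UMIs over the 4 libraries, from 116 cells in all, so that the sizes of these 2 differences depend on the fit's treatment of counts near 0. Ikzf3 stood at 68.4, 48.9, 62.5 and 61.2 CPM in plasma cells and did not pass the test with the gates on UMIs (-1.05, adjusted p = 0.0846), but did with gates by share (-1.64). Foxo1 stood at 45.6, 57.0, 0 and 20.4 CPM in plasma cells. Both TLR9-/- libraries thus lay above both WT libraries, but its UMIs there were too few for the genotype test. This order was not counted over all genes.

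**Figure D2:**
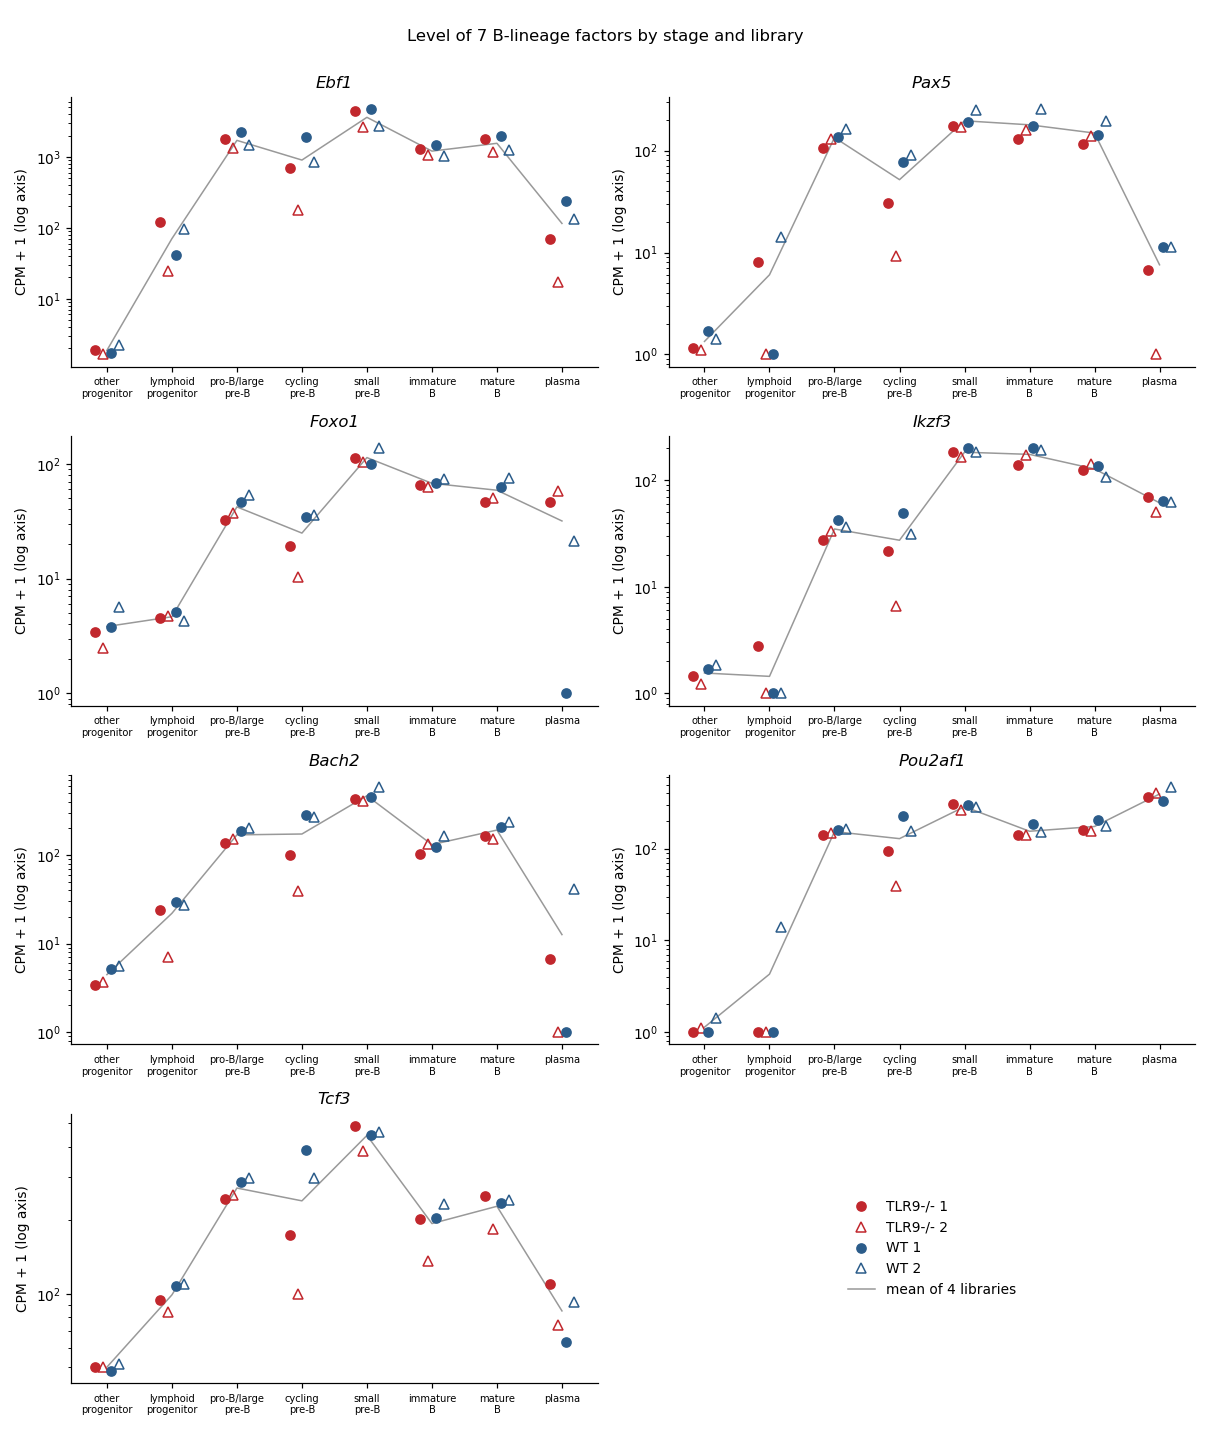
Level of each factor (y axis, CPM + 1 on a log axis, scaled jointly over stages) in 8 stages set with the gates on UMIs. Each point is 1 library, red for TLR9-/- and blue for WT, filled circles for number 1 and open triangles for number 2, and the grey line joins the means of the 4 libraries. The panels of 6 factors peak in small pre-B cells, as for Ebf1 at a mean of 3611 CPM, and that of Pou2af1 in plasma cells at a mean of 394 CPM.

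Counted per cell, the factors were seen unequally often. With each cell thinned to 800 UMIs, which left 659, 420, 945 and 894 of 984, 442, 1539 and 1018 small pre-B cells, Ebf1 was detected in 92.3%, 83.3%, 88.6% and 86.7% of small pre-B cells (95.2%, 90.0%, 92.7% and 91.9% without thinning). In the neutrophil gate, whose cells should lack the factor and whose median depth was 2246 to 3418 UMIs against 868 to 1430 in small pre-B cells, the thinned share was 5.33%, 2.21%, 7.38% and 4.02%. The other members were detected in fewer cells. Pax5 was detected in 15.0%, 17.9%, 15.1% and 21.9% of small pre-B cells and in 0.245% to 1.00% of neutrophil-gate cells, and Foxo1 in 10.3%, 11.9%, 7.51% and 11.6% against 0.124% to 0.375%. Bach2, Tcf3, Pou2af1 and Ikzf3 were each detected in 14.9% to 41.8% of small pre-B cells. The genotypes overlapped for Ebf1, Pax5 and Foxo1, whereas Pou2af1 was detected in more cells of both TLR9-/- libraries (26.3% and 27.4% against 22.5% and 22.9%, exact permutation p = 0.33). The smallest p an exact permutation test of 2 against 2 libraries can give is 0.33. Over all 56 pairs of member and stage, the mean thinned share was lower in TLR9-/- in 37. The same count over all genes was not made, so that 37 cannot be read as particular to the members. The order of the libraries seen for Pou2af1 was not counted over all genes either. The pairs come from the gates on UMIs, the cycling pre-B gate included. Some had no UMI in any library, such as Foxo1 in lymphoid progenitors.

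Outside the B lineage, the factors were not equally confined. Of all UMIs of Ebf1 and Pax5 in a library, 88.2% to 92.9% and 86.2% to 92.4% came from the 5 B gates, and for Tcf3, which is also used by other lineages, 44.3% to 69.6%. T-gate cells held Ikzf3 at 103, 39.7, 64.2 and 42.8 CPM of the gate's own UMIs and Foxo1 at 34.7, 41.0, 28.8 and 45.8, but Pax5 at 0 to 3.05. Neutrophil-gate cells held Ebf1 at 81.3, 37.5, 178 and 72.3 CPM of the gate's own UMIs, higher in the WT library of each number, and the part of free RNA in droplets was not tested.

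Over all cells of a library together, all 7 factors stood lower in TLR9-/- marrow. In bulk sums of this sort, fewer cells of a type and less RNA per cell cannot be told apart. Ebf1 was at 448 and 199 CPM in TLR9-/- and 985 and 521 CPM in WT (log2 fold change -1.22 ± 0.47), Pax5 at 24.9 and 19.7 against 57.9 and 69.0 CPM (-1.51 ± 0.19), and Bach2 at 45.4 and 30.9 against 106 and 106 CPM (-1.48 ± 0.22). Pou2af1 was at 40.7 and 26.4 against 89.8 and 70.8 CPM (-1.26 ± 0.26), Ikzf3 at 23.9 and 18.5 against 47.5 and 37.0 CPM (-1.0 ± 0.20). Foxo1 was at 15.4 and 13.1 against 27.1 and 29.6 CPM (-0.99 ± 0.15), and Tcf3 at 104 and 80.7 against 165 and 154 CPM (-0.79 ± 0.17). For all 7, both TLR9-/- libraries lay below both WT libraries, as 26.2% of genes did. The median over the 7 was -1.22 and over the 14194 genes tested -0.02. With Benjamini-Hochberg adjustment in edgeR's quasi-likelihood test, 0 of 7 passed (adjusted p 0.077 to 0.286, 0.268% of genes called), although 7 of 7 had an unadjusted p under 0.05, and DESeq2 called 6 of 7, all but Ebf1 (5.98% of genes called). The Ebf1 value was -1.90 without TLR9-/- library 1, -0.75 without TLR9-/- library 2, -0.68 without WT library 1 and -1.61 without WT library 2.

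Within the B stages other than the cycling pre-B gate, the log2 fold changes lay between -0.57 and 0.12 with the gates on UMIs. Over the 5 B gates, 34 of 35 log2 fold changes were below 0, with a median of -0.34, and 30 of 35 with gates by share, with a median of -0.22. The median over all genes tested in a B gate lay between -0.0196 and -0.0019, and between -0.0189 and -0.0021 with gates by share. The share of all genes below 0 was not counted. The 35 values include the cycling pre-B gate. They come from the same factors in the same libraries, so that they are not 35 independent results. Under the gates by share 0 of 35 had an adjusted p under 0.05 in edgeR's quasi-likelihood test (lowest 0.251) and 5 of 35 an unadjusted p under 0.05, and DESeq2 called 0 of 35. Of all genes, 0.471% were called in pro-B and large pre-B, 0.651% in cycling pre-B, 0.436% in small pre-B, 0.316% in immature and 0.204% in mature B cells. With the gates on UMIs 1 of 35 passed, Bach2 in the cycling pre-B gate, where 4.63% of genes were called, against 0.498%, 0.639%, 0.259% and 0.293% in the pro-B, small pre-B, immature and mature gates.

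Among the early factors, Ebf1 did not separate the genotypes in small pre-B cells, at 5194 and 3135 CPM in TLR9-/- and 5433 and 3172 CPM in WT (log2 fold change -0.05 ± 0.30, 0.04 ± 0.29 with gates by share). The value in every library of number 1 was above that of both libraries of number 2, whatever the genotype. The same order held for Ebf1 in pro-B and large pre-B cells (2006 and 1469 against 2558 and 1606 CPM, -0.26 ± 0.23) and in mature B cells (2026 and 1294 against 2233 and 1379 CPM, -0.12 ± 0.29). Tcf3 stood at 570 and 458 against 519 and 545 CPM in small pre-B cells (-0.05 ± 0.23), with overlapping genotypes, and at 274 and 284 against 322 and 327 CPM in pro-B and large pre-B cells (-0.22 ± 0.17).

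Foxo1 was 35.1 and 40.4 CPM in TLR9-/- and 50.9 and 57.1 CPM in WT pro-B and large pre-B cells (-0.53 ± 0.20, adjusted p = 0.376 in edgeR's test). In mature B cells it was 51.2 and 53.9 against 69.4 and 83.5 CPM (-0.54 ± 0.21, adjusted p = 0.742). The genotypes did not overlap in either stage, nor with gates by share (-0.46 and -0.55), whereas in small pre-B cells they did (131 and 121 against 115 and 160 CPM).

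Pax5, the commitment factor, lay below 0 in every B stage. Outside the cycling gate its log2 fold changes were -0.35 in pro-B and large pre-B, -0.34 in small pre-B, -0.57 in immature and -0.43 in mature B cells (-0.30, -0.25, -0.44 and -0.30 with gates by share). In immature B cells it stood at 147 and 175 CPM in TLR9-/- and 194 and 283 CPM in WT (adjusted p = 0.584), and with gates by share TLR9-/- library 2 (248 CPM) lay above WT library 1 (228 CPM).

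Bach2 was 151 and 167 against 209 and 224 CPM in pro-B and large pre-B cells (-0.44 ± 0.17, adjusted p = 0.386) and 186 and 166 against 233 and 267 CPM in mature B cells (-0.51 ± 0.22, adjusted p = 0.784), without overlap in either. Ikzf3 was the sole factor above 0 in mature B cells, at 140 and 152 against 152 and 119 CPM (0.12 ± 0.22), and at 229 and 236 against 204 and 181 CPM with gates by share (0.28 ± 0.23). Pou2af1 was 355 and 309 against 346 and 334 CPM in small pre-B cells (-0.03 ± 0.22) and 180 and 169 against 229 and 196 CPM in mature B cells (-0.28 ± 0.21). Counted by the gates by share, both TLR9-/- libraries lay below both WT libraries for 5 of 7 factors in pro-B and large pre-B cells, 3 in cycling pre-B, 0 in small pre-B, 0 in immature and 3 in mature B cells, where 21%, 21.1%, 17.9%, 17.3% and 17.6% of genes did. The reverse order, both TLR9-/- libraries above, held for 1 factor in small pre-B (Pou2af1) and 1 in mature B cells (Ikzf3). The share of all genes in the reverse order was not counted, so that it cannot be read as particular to these factors. The gates on UMIs gave 6, 7, 3, 5 and 4 of 7, where 21.9%, 30.3%, 18.3%, 18.5% and 17.1% of genes did.

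In the cycling pre-B gate on UMIs all 7 factors were lower, by 1.30 (Foxo1, Tcf3) to 2.11 (Pax5) on the log2 scale, but 1 passed the test. Bach2 was 109 and 43.1 CPM in TLR9-/- and 307 and 292 CPM in WT (-1.98 ± 0.40, adjusted p = 0.0429, edgeR quasi-likelihood). It was -2.79 without TLR9-/- library 1 and -1.45 without TLR9-/- library 2, and between these without either WT library. Each of these fits leaves 1 animal in a genotype. In this gate DESeq2 called 6 of the 7 (7.04% of genes). In the gates by share Bach2 was 274 and 196 against 357 and 413 CPM (-0.71 ± 0.22, adjusted p = 0.251), still without overlap, and 0 of 7 were called (0.651% of 9069 genes called). Ebf1 in this gate went from 775 and 197 against 2043 and 916 CPM to 1936 and 904 against 2341 and 1294 CPM with gates by share (-1.61 ± 0.62 and -0.36 ± 0.37). The median over the 7 factors was -1.57 with the gates on UMIs and -0.36 with gates by share. With cells thinned to equal depth before gating, this median was -0.12. The 7 values then lay between -0.42 and -0.015, and 0 of 7 were called (lowest adjusted p 0.691, edgeR quasi-likelihood, 18 of 8307 genes called). The Mpo shares given above were lower in every library with gates by share. They stayed higher in TLR9-/- library 2 than in WT library 2 under both sets of gates, and their part in these differences was not tested. Without TLR9-/- library 1, which leaves 1 TLR9-/- library, the gates by share gave -1.16 for Pax5 and -0.99 for Bach2 in this stage. The median over the 7 factors was then -0.69, and -0.05 without TLR9-/- library 2.

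In the gates on either side of the B stages few members could be tested. Ebf1 in lymphoid progenitors stood at 143 and 28.5 CPM in TLR9-/- and 49.9 and 122 CPM in WT (-0.12 ± 0.68), from 67, 19, 10 and 29 UMIs, and the genotypes overlapped. Bach2 was 27.7 and 7.49 against 35.0 and 33.5 CPM there (-1.06 ± 0.65) and Tcf3 113 and 102 against 130 and 138 CPM (-0.33 ± 0.25). In other progenitors Tcf3 was nearly level, at 53.2 and 52.9 against 51.3 and 54.0 CPM (0.01 ± 0.18), while Foxo1 (-1.0 ± 0.54) and Bach2 (-0.78 ± 0.46) rested on 4 to 25 UMIs per library. In plasma cells Ebf1 was 33.2 and 8.52 against 129 and 80.3 CPM (-2.17 ± 0.59, adjusted p = 0.397), from 12, 2, 23 and 13 UMIs, and Pou2af1 177 and 213 against 179 and 284 CPM (-0.25 ± 0.30). None of these 9 tests passed, where 0.362%, 0.0211% and 0.478% of genes were called in other progenitors, lymphoid progenitors and plasma cells, and 1 had an unadjusted p under 0.05, Ebf1 in plasma cells. Both TLR9-/- libraries lay below both WT libraries in 2 of 3, 2 of 3 and 1 of 3 of these tests, where 19.7%, 16.6% and 14.4% of genes did.

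**Figure D3:**
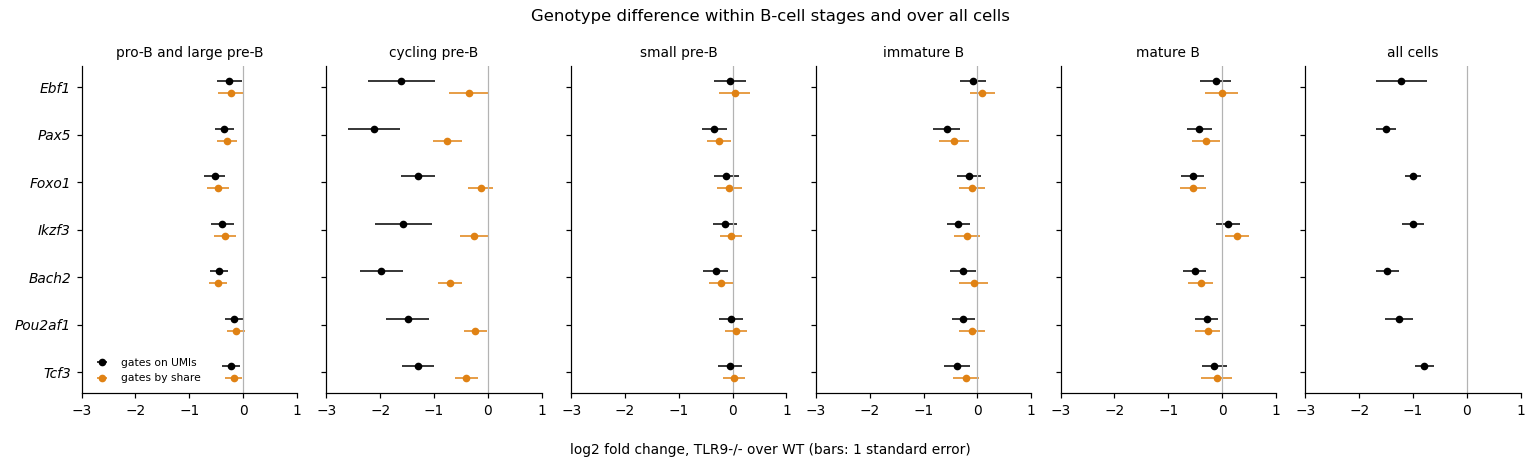
Log2 fold change of each factor, TLR9-/- over WT (x axis), with 1 standard error on either side, in 5 B-cell stages and over all cells, for the gates on UMIs (black) and the gates by share (orange). The points over all cells lie between -0.79 and -1.51, and those of small pre-B cells between -0.34 and 0.07.

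To set the whole-marrow difference beside the stage differences, each library's level was recomputed at the WT makeup, that is, with each gate weighted by its mean share of UMIs in the WT libraries instead of its own. The makeup itself differed: the 5 B gates, set by share, gave 16.7% and 11.1% of UMIs in TLR9-/- and 31.1% and 28.3% in WT. At the WT makeup the log2 ratio of the genotype means moved from -1.22 to -0.18 for Ebf1, from -1.50 to -0.45 for Pax5, from -0.99 to -0.26 for Foxo1 and from -0.99 to -0.10 for Ikzf3. For Bach2 it moved from -1.47 to -0.48, for Pou2af1 from -1.26 to -0.22 and for Tcf3 from -0.79 to -0.24. Bach2 and Pax5 thus kept the largest differences, at 78.3 and 75.9 against 100.1 and 115 CPM for Bach2 and 44.1 and 49.3 against 55.4 and 72.5 for Pax5. Both TLR9-/- libraries lay below both WT libraries for 5 of 7 factors (Pax5, Foxo1, Bach2, Pou2af1 and Tcf3), as for 19.2% of genes. Ebf1 (790 and 517 against 935 and 551) and Ikzf3 (39.8 and 38.9 against 44.6 and 39.7) overlapped. With the gates on UMIs the ratios at the WT makeup were larger, from -0.25 (Ikzf3) to -0.70 (Bach2). These ratios are a description over 2 libraries a genotype and carry no test.

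**Figure D4:**
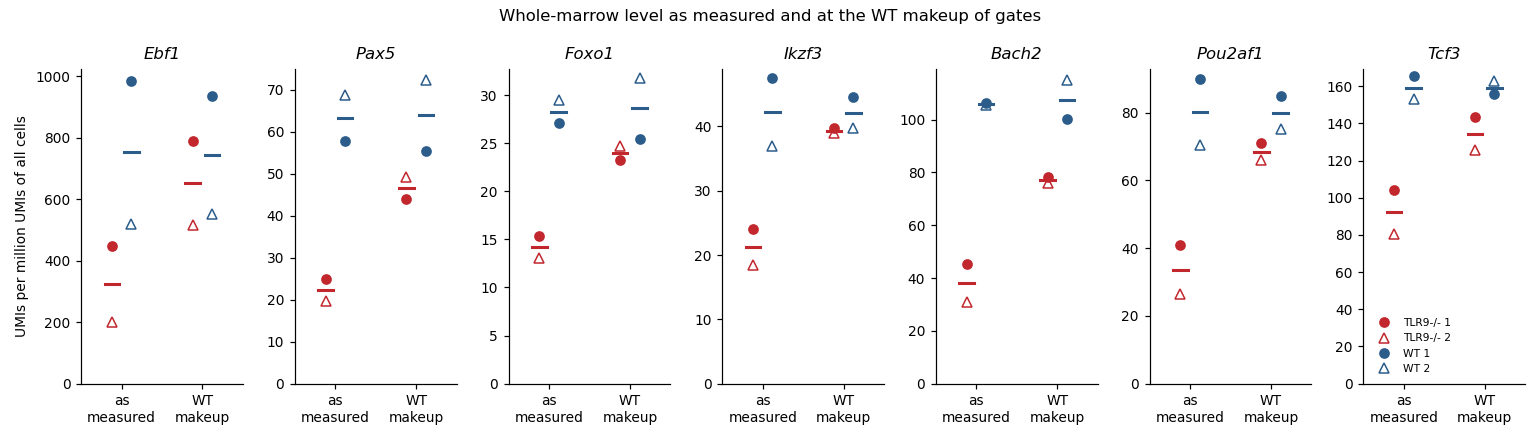
CPM of all UMIs of a library (y axis) for each factor, as measured and with each gate weighted as in WT, with the gates by share. Points are libraries, red for TLR9-/- and blue for WT, filled circles for number 1 and open triangles for number 2, and bars mark the mean of 2 libraries. For Ebf1 the TLR9-/- mean rises from 324 to 654 against 752 and 743 in WT.

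Whether the genotype difference itself varied between stages was tested as an interaction in 1 fit over the 8 stages. Tcf3 passed with the gates on UMIs (adjusted p = 0.0271, edgeR quasi-likelihood, 1.33% of 10064 genes called), its log2 fold change running from -1.30 in the cycling gate to 0.07 in plasma cells. In the same test the other factors had an adjusted p from 0.0607 (Foxo1) to 0.171 (Ikzf3). The unadjusted p of all 7 lay under 0.05 (0.000122 to 0.0150). Under the gates by share the adjusted p of Tcf3 was 0.835, and 0 of 7 factors were called (0.232% of 9903 genes), with 1 unadjusted p under 0.05, that of Foxo1.

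Other genes of the network were read from 2 lists. Of 23 further factors of B-lineage development, 0 were called over all cells by edgeR, 12 had an unadjusted p under 0.05, and their median log2 fold change was -0.42. In other progenitors 1 of 17 tested was called (0.196% of genes fell), Id2, an inhibitor of E proteins such as those of Tcf3, which was lower in TLR9-/- at 8.03 and 8.49 against 17.4 and 30.8 CPM (-1.59 ± 0.28, adjusted p = 0.0386). With gates thinned to 800 UMIs 0 genes were called in this gate, so that the Id2 call was lost. In the cycling gate on UMIs, 3 of 22 tested were higher and 2 lower, the higher ones being Spi1 (1.22) and Irf8 (1.15), which also act in myeloid cells, and Xbp1 (1.20), and the lower ones Sox4 (-1.27) and Foxp1 (-1.11), named after their values were seen (2.59% of genes were higher and 2.04% lower). Of 15 known targets of the members that no gate used, 6 of 13 tested were lower in that gate, among them Rag1 (-2.18), the B-cell adaptor Blnk (-1.67), the kinase Syk (-1.50) and the homing receptor Ccr7 (-1.68), and 0 were higher. Under the gates by share 0 genes of either list were called by edgeR in the 5 B stages, with 5 of 13 targets and 7 of 22 factors at an unadjusted p under 0.05 in the cycling stage, Rag1 being at -0.85 (adjusted p = 0.182) and Spi1 at 0.99 (adjusted p = 0.0692). Over all cells 0 of the 15 targets were called by edgeR, 9 had an unadjusted p under 0.05 and their median was -0.77, and in small pre-B, immature and mature B cells their medians were -0.23, -0.06 and -0.14 with the gates on UMIs and -0.13, 0.13 and -0.03 with gates by share.

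Across the 8 stages and 4 libraries (32 points, which share libraries and depths), the gene most like Pou2af1 by Pearson correlation of log2(CPM + 1) among 7357 genes was Irf4 (r = 0.982), followed by Slamf7 (0.952) and Gm30211 (0.950). For Pax5 it was Chst3 (0.979), with Gm37065 (0.938) and Snap29 (0.937), and for Ebf1 Chst3 (0.955), Cecr2 and Camk2d (both 0.954). Bach2 was most like Cpm (0.955), Marcks (0.952) and Tmem131l (0.946), and Tcf3 most like Cecr2 (0.961), Marcks (0.949) and Stambpl1 (0.947). Foxo1 had Osbpl9 (0.920), Adgre5 (0.918) and Nedd9 (0.917), and Ikzf3 had Atp2a3 (0.949), Acp5 (0.946) and Gm30211 (0.942). Among the 7 themselves, the correlation was highest for Ebf1 with Pax5 (0.935) and lowest for Bach2 with Pou2af1 (0.522), which part in plasma cells.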

How the data were processed

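Bone marrow mononuclear cells were profiled on the 10x Chromium platform by the 5′ end. The deposited matrices hold UMI counts per gene and cell, made by the authors with Cell Ranger 3.0.1 (matrix header) on mm10, and the submitters' processing notes also name STAR and Seurat 2.3.4. Cells with 200 to 10000 genes and at most 10% mitochondrial UMIs were kept (39167 of 40545). No doublet caller was run, and leaving out cells above 2.5 times the median UMIs was an alternative. Counts were summed per gate and library, filtered by filterByExpr, scaled by TMM and tested with edgeR 4.0.16 (quasi-likelihood, two-sided, Benjamini-Hochberg over all genes tested, threshold 0.05). DESeq2 1.42.0 was an alternative. The calculations ran in R 4.3.3 and Python 3.11.15. The standard error is the log2 fold change divided by the root of the F statistic. Gates by share were chosen after seeing the data. Not every gene of the B-cell set is reported here. The members, lists and tests were chosen with earlier results of these data known. Named were the 7 members throughout, the 3 genes most like each (mean of at least 10 CPM, pseudocount 1), and at most 4 called genes of a list. The genotype fit was tested on simulated data for small pre-B cells, mature B cells and all cells. The step from cycling to small pre-B cells and the interaction were tested in the same way. The other fits were not. Library numbers come from the labels, which do not say that a number marks an experiment. Intervals of counting error are not given. The p-values of the genotype fits rest on the spread between 2 animals a genotype, which includes any difference between the 2 experiments. Those between neighbouring stages and of the interaction come from fits with the library as a block, and rest on the spread of stages within animals.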

Additional observations from a re-analysis of the deposited data

Results flagged for a closer look

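The genotype difference of Tcf3, the E2A gene, was not the same in all 8 stages when cells were assigned with the gates on UMIs (interaction, edgeR quasi-likelihood over the 4 libraries, adjusted p = 0.0271), which is a difference of an effect between groups of cells. Its log2 fold change was -1.30 in the cycling pre-B gate, where TLR9-/- libraries stood at 191 and 111 CPM and WT libraries at 420 and 324 CPM, and lay between -0.38 and 0.07 in the other 7 stages. With gates by share the cycling value was -0.40 (398 and 295 against 476 and 437 CPM) and the adjusted p of the interaction 0.835. Tcf3 did not stand alone with the gates on UMIs: the unadjusted p of the interaction lay under 0.05 for all 7 members (0.000122 to 0.0150). Their log2 fold changes in the cycling pre-B gate lay between -2.11 and -1.30. Mpo was 0.351% and 0.724% of the UMIs of this gate in TLR9-/- and 0.0875% and 0.264% in WT, and its part in the result was not tested.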

How the results depend on the processing

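The number of members called by genotype within stages was 1 with the gates on UMIs and rested on the cycling pre-B gate, where 461 of 9961 genes were called. It was 6 with DESeq2 (701 of 9961 genes in that gate) and 3 with immunoglobulin genes left out (668 of 9926). With no filter on low counts it was 8, 7 in the cycling gate (2236 of 15636) and Ebf1 in plasma cells (129 of 10979). With at most 2% of UMIs on other lineages it was 4 (721 of 9864). It was 0 with gates thinned to 800 UMIs (18 of 8307), with at least 3 UMIs of the B genes (39 of 9314) and without cells of high UMIs (0 of 8549). Gates by share, an alternative chosen after seeing the data, also gave 0 (59 of 9069). Leaving out 1 library leaves 1 animal in a genotype, so that effect sizes alone are given. The median log2 fold change over the 7 members in the cycling gate was -2.73 without TLR9-/- replicate 1 and -0.96 without TLR9-/- replicate 2. It was -1.21 without WT replicate 1 and -1.86 without WT replicate 2. Over all cells 0 members were called (38 of 14194 genes), and 6 with DESeq2 (849 of 14194). With no filter it was 6 (605 of 20307), and with immunoglobulin genes left out 1, Pax5 (59 of 13996). When a library was left out, the median over the members ran from -1.59 (without TLR9-/- replicate 1) to -0.88 (without TLR9-/- replicate 2). No stage's share of cells was called, and 1 was (other progenitors) when neutrophil and erythroid gates were left out of the denominator. Tcf3 was the 1 member called for the interaction, and 0 were with gates by share. Calls between neighbouring stages ranged from 26 to 36 over all alternatives.

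The replicate block on library numbers called 7 members within stages, all in the cycling gate (37.9% of genes called). With gates by share it called 1, Bach2 in cycling pre-B (-0.72, adjusted p = 0.0423, edgeR quasi-likelihood, 327 of 9069 genes called). It called 7 over all cells (8.21% of genes called) and 0 stages' shares. The deviations of same-numbered libraries from their genotype means correlated at 0.323 over all cells and 0.0076 to 0.486 within stages. With 2 numbers, and no label tying a number to an experiment, the libraries may share no more than a number.

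Some values near 0 changed sign (log2 fold changes). Without cells of high UMIs, small pre-B values were 0.070 for Ebf1, 0.0029 for Foxo1, 0.10 for Pou2af1 and 0.090 for Tcf3. Immature B values were 0.22 for Ebf1, 0.049 for Foxo1 and 0.15 for Bach2, and Ebf1 in mature B was 0.0099 and Tcf3 in other progenitors -0.14. With gates thinned, Ebf1 in immature B was 0.12, Pou2af1 in pro-B and large pre-B 0.031 and Tcf3 in other progenitors -0.22. With at least 3 UMIs of the B genes, small pre-B values were 0.032 for Ebf1, 0.032 for Pou2af1 and 0.038 for Tcf3. With gates by share they were 0.037 for Ebf1, 0.065 for Pou2af1 and 0.025 for Tcf3, and Ebf1 in immature B was 0.089. Leaving out each library moved Ebf1 from -1.59 to 0.71 in lymphoid progenitors, -0.56 to 0.11 in pro-B and large pre-B, -0.46 to 0.40 in small pre-B, -0.33 to 0.20 in immature and -0.48 to 0.26 in mature B. It moved Foxo1 from -0.33 to 0.12 and Pou2af1 from -0.14 to 0.068 in small pre-B, Pou2af1 from -0.52 to 0.13 in plasma, and Ikzf3 from -0.063 to 0.30 in mature B. Tcf3 moved from -0.22 to 0.10 in small pre-B, -0.41 to 0.083 in mature B, -0.017 to 0.057 in other progenitors and -0.24 to 0.46 in plasma. The cause was not tested. Members with few UMIs in progenitors and plasma cells could not be tested there.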

Other observations

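Ebf1 differed between the libraries of number 1 and number 2 in both genotypes, a comparison chosen after its values were seen. With genotype in the fit, number 1 was higher by 0.56 ± 0.13 on the log2 scale in pro-B and large pre-B cells (edgeR quasi-likelihood, adjusted p = 0.0442, 1.06% of genes called), by 0.75 ± 0.16 in small pre-B cells (adjusted p = 0.00198, 2.09% of genes called) and by 0.67 ± 0.17 in mature B cells (adjusted p = 0.193). No other member was called in these 3 stages. In the cycling pre-B gate Ebf1 was higher by 1.56 (adjusted p = 9.15e-09), and Ikzf3 (1.13), Pou2af1 (0.87), Bach2 (0.66) and Tcf3 (0.57) were called too, where 9.72% of genes were. Over all cells Ebf1 was higher by 1.04 (adjusted p = 0.0260, 1.16% of genes called). Under the gates by share the values for Ebf1 were 0.56 (adjusted p = 0.0290), 0.68 (0.0805) and 0.66 (0.0207), and 0.98 (0.00239) in cycling pre-B cells, where no other member was called. Of all genes, 1.12% were called in pro-B and large pre-B, 0.386% in small pre-B, 4.3% in mature B and 1.47% in cycling pre-B cells. Number 1 libraries were the shallower of each genotype, with 50204578 and 31210188 against 63958243 and 41384657 UMIs. The part of depth in the Ebf1 difference was not tested.

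Ikzf3 in T-gate cells stood at 103 CPM of the gate's own UMIs in TLR9-/- library 1 and at 39.7, 64.2 and 42.8 in the other 3 libraries.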
